A study of Mus musculus with 7 samples.

Results

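The genes described here make cholesterol and fatty acids: 36 genes were listed by name, 17 enzymes of sterol synthesis, 12 enzymes of fatty acid synthesis, elongation and desaturation, and 7 regulators or lipid-handling genes. Members were the rows of the expression table whose gene symbol equalled a listed name, with no use of their values in that match. The list itself was chosen with earlier results of these data known. The authors tested 15966 of its 37975 genes, and 35 of the 36 members were among them. The list does not hold every enzyme of the pathways, and genes outside it are given only as context.

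The study compared mouse primary myoblasts with the myotubes they form. Myoblasts were grown from satellite cells, the stem cells of skeletal muscle, sorted from mice of 4 to 6 weeks whose strain, sex and genotype the labels do not give. One group was RNA of growing myoblasts and the other RNA of myotubes after 48 hours in medium with 5% horse serum, and cells of both groups carried an empty retroviral vector, so no untransduced cells enter the comparison. The remaining group used was chromatin immunoprecipitation (ChIP) of MyoD, the master transcription factor of muscle differentiation, from 2-day myotubes; 4 further samples, all of histone ChIP, were not analysed here.

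Expression was given as FPKM, fragments per kilobase of transcript scaled to those mapped, with 1 value for each gene and condition. Depth was unknown, since none of the sources used here gives read totals. Errors are standard errors (SE) of the log2 fold change implied by the authors' test statistic, and a gene was called where the authors marked it significant at a q of at most 0.05 with Cuffdiff. Duplicates are stated in the labels' protocol, yet each condition has only 1 value, so no difference had a replicate check here. Listed myotube markers were high after differentiation, with 5 of 5 higher by the call of the authors' deposited table and a summed level of 1298 FPKM in myoblasts and 21242 in myotubes. The myoblast markers Pax7 and Myf5 were both called lower in the authors' deposited table. All 5 adipocyte markers (Adipoq, Plin1, Fabp4, Cidec and Cfd) were below 1 FPKM in both conditions, 3 of them at 0 in both, and summed to 0.272 and 0.228 FPKM. Of 3 Schwann cell markers the authors' deposited table called 1 higher, Pmp22 at 28.3 and 87.6 FPKM, and the sum went from 29.95 to 88.1 FPKM, while Sox10 was below 1 FPKM in myoblasts and at 0 in myotubes. Of 5 fibroblast markers 1 was called lower in that table, Thy1 at 3.70 and 0.516 FPKM, with Lum at 0 in both conditions and a sum of 7.90 and 1.47 FPKM. Of 4 macrophage markers 2 were called lower in that table, Cd68 at 11.04 and 2.80 FPKM and Cd14 at 1.00 and 0, with Emr1 at 0 in both conditions and a sum of 12.04 and 2.97 FPKM. The part of these markers' cell types in the members' values was not tested.

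Cholesterol is built from acetyl-CoA through mevalonate, the isoprenoid farnesyl diphosphate, squalene and lanosterol. Fatty acids are built from the same acetyl-CoA by carboxylation to malonyl-CoA and repeated condensation on fatty acid synthase, after which elongases and desaturases modify the chain. Most of these genes are known targets of the sterol regulatory element binding proteins (SREBPs), membrane-bound factors that SCAP escorts to the Golgi for cleavage when sterols are low and that INSIG proteins hold in the endoplasmic reticulum when sterols are high. In growing and fusing muscle cells these lipids go into membranes.

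The sterol branch rose as myoblasts became myotubes. All 16 tested sterol enzymes had a higher FPKM in 2-day myotubes, and 11 of these rises were called by Cuffdiff in the authors' deposited table. Among all tested genes, 6.52% were called higher and 17.3% lower, and 33.1% had a higher FPKM in myotubes. The summed FPKM of the 16 enzymes was 237 in myoblasts and 883 in myotubes, a ratio of 3.73. The median log2 ratio, taken as log2((FPKM 2-day + 1)/(FPKM growth + 1)), was 1.67 for the branch and -0.38 for all tested genes. In bulk RNA such values cannot tell apart a change in the share of cells that express a gene and a change in RNA per cell.

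The early steps, from mevalonate to farnesyl diphosphate, had 4 of 5 members called higher in the authors' deposited table. Mvk, mevalonate kinase, was at 18.9 FPKM in myoblasts against 40.3 in myotubes (log2 fold change 1.10 ± 0.37 SE, q = 0.0164 by the authors' deposited table). Pmvk, the next kinase, was at 11.3 and 18.1 FPKM and was not called (log2 fold change 0.68 ± 0.52 SE). Mvd, the decarboxylase that yields isopentenyl diphosphate, was at 12.6 and 51.2 FPKM and rose by the call of the authors' deposited table (log2 fold change 2.02 ± 0.67 SE), at a locus that the table merges over 70 tested genes. That table called 8 of the 70 higher, Mvd among them, and 10 lower, and the locus also holds the myotube marker Acta1, which rose from 764 to 11909 FPKM. Idi1, the isomerase of isopentenyl diphosphate, rose from 7.07 to 36.7 FPKM (log2 fold change 2.38 ± 0.44 SE, q = 1.72e-06 by the authors' deposited table). Fdps, farnesyl diphosphate synthase, rose from 17.8 to 113 FPKM (log2 fold change 2.66 ± 0.67 SE, q = 0.000841 by the authors' deposited table). Hmgcs1, which makes the HMG-CoA that precedes mevalonate, was listed on 2 rows, at 0 in both conditions and on unplaced contigs, and was not tested.

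Of the squalene steps, 1 of 3 was called. Fdft1, squalene synthase, was at 8.17 FPKM in myoblasts against 23.2 in myotubes and was not called (log2 fold change 1.51 ± 0.69 SE, q = 0.1004 by the authors' deposited table). Sqle, squalene epoxidase, had the lowest ratio of the branch, 1.59, at 15.6 and 24.7 FPKM (log2 fold change 0.67 ± 0.57 SE, not called). Lss, lanosterol synthase, which closes the sterol rings, rose from 13.7 to 37.1 FPKM (log2 fold change 1.44 ± 0.46 SE, q = 0.0108 by the authors' deposited table).

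Of the late steps, from lanosterol to cholesterol, the authors' deposited table called 6 of 8 higher, and their median log2 ratio was 2.09. Cyp51, the lanosterol demethylase, rose from 19.0 to 98.6 FPKM (log2 fold change 2.37 ± 0.45 SE, q = 4.66e-06 by the authors' deposited table). Tm7sf2, a sterol reductase, had the highest ratio of the branch, 7.27, and rose from 5.19 to 37.7 FPKM (log2 fold change 2.86 ± 0.44 SE, q = 4.19e-09 by the authors' deposited table). Sc4mol, the methyl sterol oxidase now named Msmo1, rose from 32.4 to 188 FPKM, the highest level of any sterol enzyme tested in myotubes (log2 fold change 2.54 ± 0.44 SE, q = 3.24e-07 by the authors' deposited table). Its partners in removing the methyl groups rose too: Nsdhl, a sterol dehydrogenase, from 10.8 to 52.3 FPKM (log2 fold change 2.27 ± 0.67 SE) and Hsd17b7, a ketoreductase, from 7.88 to 22.6 (log2 fold change 1.52 ± 0.48 SE), both called in the authors' deposited table. Ebp, the sterol isomerase, was at 39.1 and 81.0 FPKM (log2 fold change 1.05 ± 0.49 SE) and was not called. Sc5d, the desaturase after it, was at 6.72 and 13.4 FPKM (log2 fold change 1.00 ± 0.50 SE) and was not called either. Dhcr7, the final reductase to cholesterol, rose from 10.6 to 45.6 FPKM (log2 fold change 2.10 ± 0.33 SE, q = 1.14e-08 by the authors' deposited table).

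Levels of the 16 enzymes were closer to each other in myoblasts, from 5.19 to 39.1 FPKM, than in myotubes, from 13.4 to 188. After centring all log2 fold changes on the median of tested genes above 0 in both conditions, which lay at -0.41, 14 of the 16 were called higher and 0 lower, with Fdft1, Ebp and Sc5d added; over all tested genes that gave 9.94% higher and 10.2% lower. The calls rest on 1 value per condition and on the error model of Cuffdiff.

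**Figure D1:**
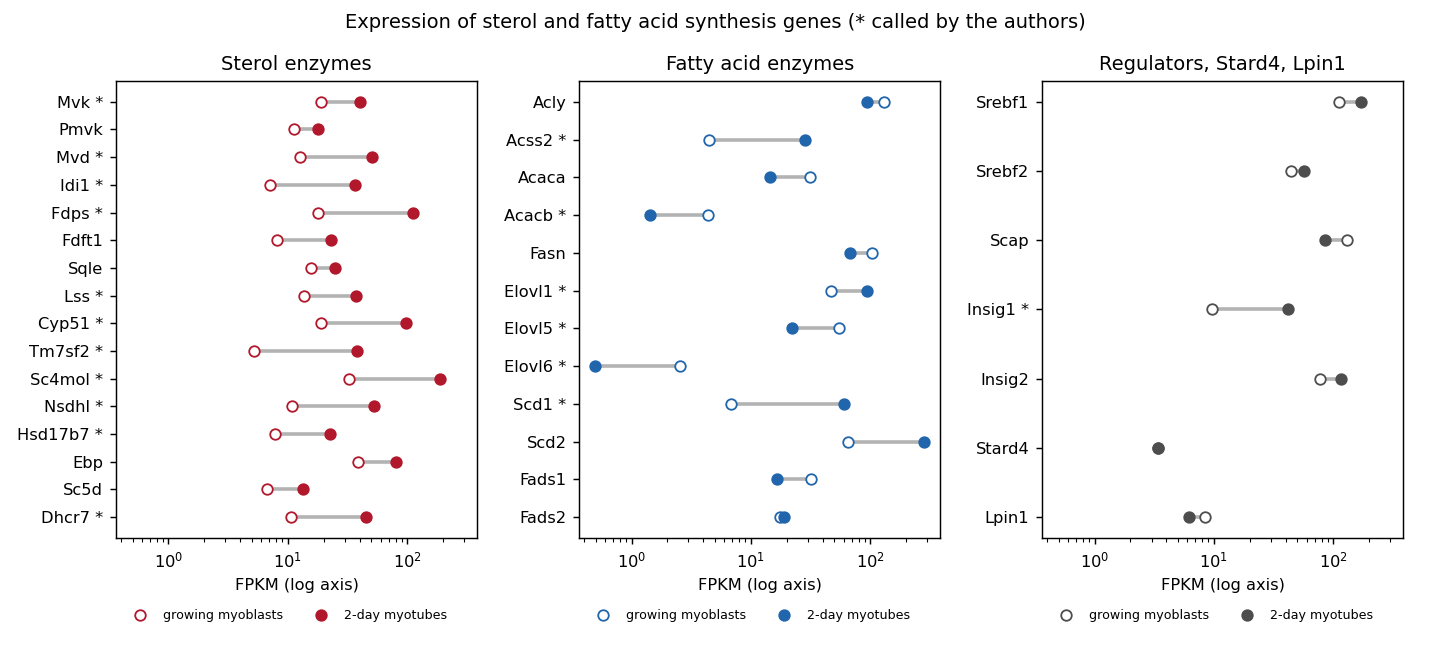
FPKM of each tested member in growing myoblasts (open circles) and 2-day myotubes (filled circles) on a log axis, by branch in pathway order, with an asterisk at genes the authors called. Every sterol enzyme lies further right in myotubes, up to 188 FPKM for Sc4mol, while fatty acid enzymes move both ways.

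The fatty acid branch moved both ways. Of its 12 enzymes, all tested, 3 rises and 3 falls were called in the authors' deposited table, and 5 had a higher and 7 a lower FPKM in myotubes. Against the 6.52% called higher and 17.3% called lower of all tested genes, that is 25% of the branch in each direction, and 41.7% had a higher FPKM against 33.1%. The median log2 ratio was -0.55, near the -0.38 of all tested genes, while the mean was 0.15, since a few enzymes rose far. Summed FPKM was 502 in myoblasts and 700 in myotubes, but 429 and 357 without Scd1 and Scd2. After centring, 4 were called higher and 1 lower, with Scd2 added and Acacb and Elovl5 lost. Without genes at shared loci 1 of 9 was called higher, and at a q of at most 0.01 the lower calls fell to 0.

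Acly, Fasn and the carboxylases Acaca and Acacb, listed from acetyl-CoA to palmitate, all had a lower FPKM in myotubes. Of these 4 only Acacb was called, and after centring 0 were called lower. Among all tested genes 33.1% had a higher FPKM and 17.3% were called lower, so a fall particular to this route is not shown. Acly, ATP citrate lyase, which releases cytosolic acetyl-CoA, was at 131 and 93.7 FPKM (log2 fold change -0.48 ± 0.27 SE). Fasn, fatty acid synthase, was at 104 and 67.6 FPKM (log2 fold change -0.62 ± 0.41 SE). Acaca, the cytosolic acetyl-CoA carboxylase, was at 31.4 and 14.4 FPKM (log2 fold change -1.12 ± 0.60 SE), and like Acly and Fasn it was not called. Acacb, the carboxylase at mitochondria whose malonyl-CoA restrains fatty acid oxidation, fell from 4.37 to 1.42 FPKM (log2 fold change -1.62 ± 0.60 SE, q = 0.0330 by the authors' deposited table), a call lost after centring. Acss2, which makes cytosolic acetyl-CoA from acetate, moved the other way, from 4.43 to 28.4 FPKM (log2 fold change 2.68 ± 0.40 SE, q = 1.31e-09 by the authors' deposited table). Acss2 shares its locus with Gss, which was also called higher in that table, at 91.7 and 180 FPKM.

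Among the elongases, Elovl1, which extends saturated and monounsaturated very long chains, rose from 47.2 to 93.4 FPKM (log2 fold change 0.98 ± 0.26 SE, q = 0.00147 by the authors' deposited table). Elovl1 shares its locus with the mitotic gene Cdc20, which was at 130 and 14.9 FPKM and was called lower in the authors' deposited table, so the neighbour moved in the opposite direction. Elovl5, the elongase of polyunsaturated chains, fell from 54.9 to 22.2 FPKM (log2 fold change -1.30 ± 0.44 SE, q = 0.0166 by the authors' deposited table). Elovl6, which takes palmitate to stearate, fell from 2.53 to 0.499 FPKM (log2 fold change -2.34 ± 0.75 SE, q = 0.0109 by the authors' deposited table). The call of Elovl5 was lost after centring (q = 0.148) and that of Elovl6 stood close to the threshold (q = 0.0499).

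Among the desaturases, the stearoyl-CoA desaturases Scd1 and Scd2, which make monounsaturated chains, had, with Acss2, the highest ratios of the branch. Scd1 rose from 6.82 to 60.9 FPKM (log2 fold change 3.16 ± 0.67 SE, q = 5.06e-05 by the authors' deposited table), the highest log2 fold change of any member. Scd2 was at 65.8 and 282 FPKM, the highest level of any member tested in myotubes, and was not called (log2 fold change 2.10 ± 0.86 SE, q = 0.0590 by the authors' deposited table). Scd1 and Scd2 are related neighbours on chromosome 19, and no source used here says how reads common to both were counted. Fads1 and Fads2, the desaturases of polyunsaturated chains, were not called, Fads1 at 32.1 and 16.4 FPKM (log2 fold change -0.97 ± 0.65 SE) and Fads2 at 17.5 and 18.9 (log2 fold change 0.11 ± 0.68 SE).

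**Figure D2:**
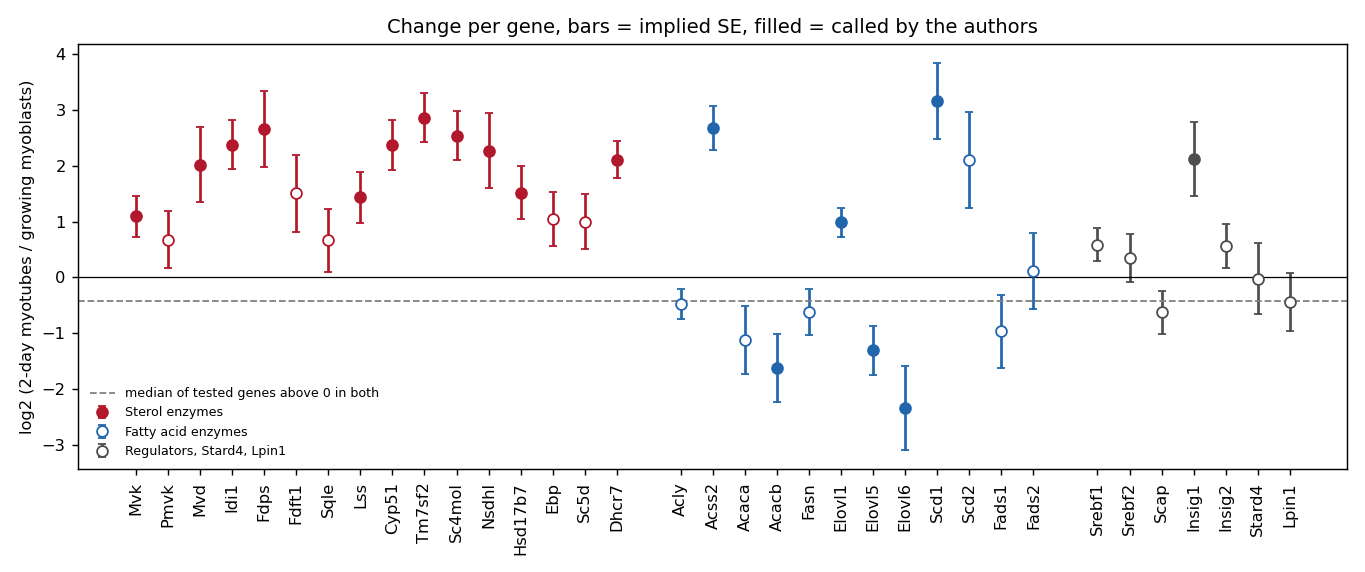
Log2 fold change (2-day myotubes over growing myoblasts) of each tested member, with bars of 1 implied SE; filled points were called by the authors and the dashed line is the median of tested genes above 0 in both conditions, -0.41. All sterol enzymes lie above 0, whereas fatty acid enzymes spread from -2.34 (Elovl6) to 3.16 (Scd1).

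Set side by side, the branch medians differed by 2.22 on the log2(FPKM + 1) scale, sterol above fatty acid. The lowest sterol ratio, 0.63 for Sqle on that scale, was above 8 of the 12 fatty acid ratios. Genes of a branch are not replicates, so the difference of the branches has no test here. It ran from 1.52 to 2.31 over all alternatives tried and kept its sign.

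**Figure D3:**
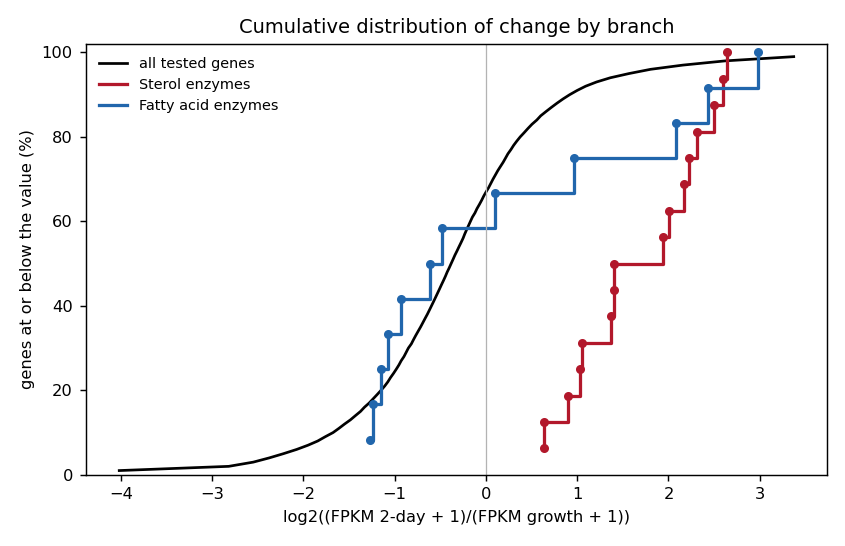
Cumulative share of genes (percent) at or below each log2((FPKM 2-day + 1)/(FPKM growth + 1)), for all tested genes (black, 15966 genes), sterol enzymes (red, 16 genes) and fatty acid enzymes (blue, 12 genes). The sterol curve begins at 0.63, right of 0, while the fatty acid curve crosses that of all genes.

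Of the 5 members that are SREBPs or their retention and escort proteins, 1 was called, Insig1. Among all tested genes 23.9% were called in either direction, so this count is near the background. Insig1, which retains SCAP and SREBP in the endoplasmic reticulum and is itself an SREBP target, rose from 9.72 to 42.2 FPKM (log2 fold change 2.12 ± 0.66 SE, q = 0.00921 by the authors' deposited table). Its relative Insig2 was at 78.1 and 116 FPKM (log2 fold change 0.57 ± 0.40 SE, not called), so the order of levels, Insig2 above Insig1, was the same in both conditions. Whether Insig1 and Insig2 differed in their change was not tested.

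The transcripts of the SREBPs themselves and of Scap were not called. Srebf1, whose products favour fatty acid genes, was at 113 and 169 FPKM (log2 fold change 0.59 ± 0.30 SE, q = 0.149 by the authors' deposited table), a gene called higher after centring (q = 0.00695), at a locus shared with Rai1, which was called lower in the authors' deposited table (27.3 and 10.9 FPKM). Srebf2, whose product favours sterol genes, was at 44.3 and 56.7 FPKM (log2 fold change 0.36 ± 0.43 SE, not called). Scap was at 131 and 84.9 FPKM (log2 fold change -0.63 ± 0.38 SE, not called). Table values are per gene, so the promoter isoforms of Srebf1 are not told apart, and transcript levels do not show cleavage of the proteins.

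Stard4, a cytosolic sterol carrier, was at 3.42 and 3.37 FPKM (log2 fold change -0.02 ± 0.64 SE, not called), with a sign that turned after centring. Lpin1, a phosphatidate phosphatase of glycerolipid synthesis and a coregulator, was at 8.43 and 6.24 FPKM (log2 fold change -0.43 ± 0.52 SE, not called). Over all 35 tested members, the authors' deposited table called 15 higher and 3 lower, so 83.3% of their calls were higher, against 27.3% of the calls over all tested genes. After centring 20 were higher and 1 lower, 95.2% higher, against 49.3% over all tested genes.

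Genes around these pathways were listed by their roles, though with earlier results of these data known. Of 32 listed, 28 were tested, of which the authors' deposited table called 3 higher and 7 lower (5 and 5 after centring), with a median log2 ratio of -0.37, close to the -0.38 of all tested genes. These are 10.7% higher and 25% lower (17.9% and 17.9% after centring), against 6.52% and 17.3% of all tested genes (9.94% and 10.2% after centring). Of 11 tested genes of sterol handling, 2 falls and 0 rises were called by Cuffdiff in the authors' deposited table, and 1 gene, Nr1h3 (1.18 and 5.34 FPKM), was higher at an unadjusted p under 0.05. Soat1, which esterifies cholesterol for storage, fell from 53.1 to 8.60 FPKM (log2 fold change -2.63 ± 0.67 SE, q = 0.000925 by the authors' deposited table). Mbtps2, the membrane protease that completes the release of SREBP, fell from 47.3 to 15.8 FPKM (log2 fold change -1.58 ± 0.45 SE, q = 0.00354 by the authors' deposited table).

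Of 17 tested genes of fatty acid supply, activation and glycerolipid synthesis, the authors' deposited table called 3 higher and 5 lower. Acsl3, a long-chain acyl-CoA synthetase, rose from 72.8 to 307 FPKM (log2 fold change 2.07 ± 0.37 SE), Acsl1 of the same family from 13.6 to 59.6 (log2 fold change 2.13 ± 0.41 SE), while their relative Acsl5 fell from 21.3 to 6.73 (log2 fold change -1.66 ± 0.57 SE), all in the authors' deposited table. Thrsp, a small protein of lipogenic tissues, was at 0.425 and 2.30 FPKM, a rise called in the authors' deposited table. Slc25a1, which exports the citrate that Acly uses, fell from 48.1 to 18.3 FPKM (log2 fold change -1.39 ± 0.36 SE, q = 0.000987 by the authors' deposited table). Dgat1, which completes triglycerides, fell from 49.6 to 26.9 FPKM in the authors' deposited table. Lpin2 fell from 32.3 to 6.42 FPKM and Lpin3 from 95.7 to 23.0, both called in the authors' deposited table. Lpin2, Lpin3, Acsl3, Acsl5 and Mbtps2 are at loci shared with other tested genes. The calls of Acsl5 and Dgat1 were lost after centring.

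Promoters of the members were examined for listed motifs as a description, and any part of the motifs in the changes was not tested. RefSeq windows from 250 bases before to 50 bases after the gene start (build GRCm38.p6) were found for 29 of the 36 members; Fdps, Fdft1, Sqle, Scd1, Scd2, Fads1 and Stard4 had none. Matches on either strand were sought to TCACNCCAC (a core of the sterol regulatory element), CCAAT (the box bound by NF-Y, a known partner of SREBP), CAGCTG and CAGGTG (E-boxes of the kind MyoD binds) and CACGTG (an E-box of MYC and USF factors); none of the motifs contains another. CCAAT was present at all 14 sterol enzymes with a window and at 6 of 9 fatty acid enzymes, against 43.0% of 9904 tested genes with a window and 41.1% of 27025 genes in the whole table. Among the 12 sterol enzymes with 1 window, 12 held it, against 39.4% of tested genes with 1 window. Tested genes called higher held it in 42.3%. The fatty acid enzymes without CCAAT were Acaca, Elovl6 and Fads2. TCACNCCAC was present at 1 member, Hmgcs1, which was not tested, against 1.44% of genes in the whole table and 1.36% of tested genes with a window. Only exact matches to this string were sought, so sterol elements that differ from it were not counted. Their absence from a promoter is not shown.

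The E-boxes were at shares nearer to those of all tested genes. CAGCTG was present at 3 of 14 sterol enzymes (21.4%) and 0 of 9 fatty acid enzymes, against 18.04% of tested genes with a window and 28.0% of those called higher. CAGGTG was at 3 of 14 and 1 of 9, against 20.3%, and CACGTG at 3 of 14 and 1 of 9, against 11.7%. A match is a run of letters in this window, not a bound site.

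**Figure D4:**
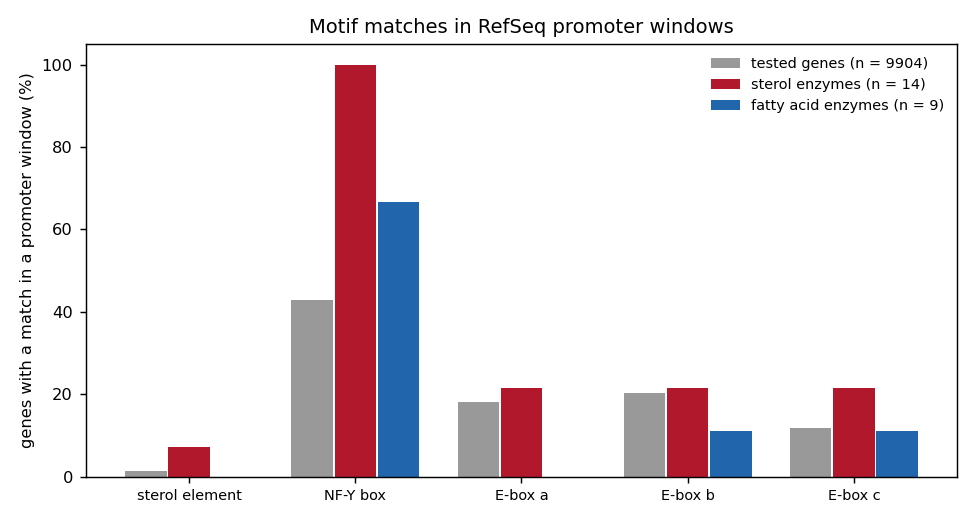
Share of genes (percent, from 0) with a match in a RefSeq promoter window, for tested genes (grey, 9904 genes), sterol enzymes (red, 14 genes) and fatty acid enzymes (blue, 9 genes); E-box a, b and c are the 3 E-boxes in the order given above. The NF-Y box CCAAT stands at 100% of the sterol enzymes, against 43.0% of tested genes.

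The 250 bases before the start are printed 5′ to 3′ on the gene's strand, in lower case with matches to those motifs, on either strand, in capitals (ATTGG is CCAAT on the other strand). Hmgcs1 is shown for its sterol element match, and the others were chosen after their values were seen: Tm7sf2, Idi1 and Cyp51 as sterol enzymes that rose, and Elovl6 as a fatty acid enzyme that fell and has no match. Elovl6 does not stand for the fatty acid enzymes called lower, since 2 of those 3, Acacb and Elovl5, hold CCAAT. In GRCm38.p6 the stretches are chr13:119690101-119690350 on the plus strand for Hmgcs1, chr19:6067851-6068100 on the minus strand for Tm7sf2, chr13:8885356-8885605 on the plus strand for Idi1, chr5:4104698-4104947 on the minus strand for Cyp51 and chr3:129532136-129532385 on the plus strand for Elovl6.
Hmgcs1: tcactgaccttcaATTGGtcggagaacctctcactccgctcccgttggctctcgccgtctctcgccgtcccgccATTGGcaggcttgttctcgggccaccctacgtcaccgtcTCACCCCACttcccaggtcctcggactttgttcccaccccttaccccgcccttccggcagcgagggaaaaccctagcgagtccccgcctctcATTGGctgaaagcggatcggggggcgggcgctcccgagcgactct
Tm7sf2: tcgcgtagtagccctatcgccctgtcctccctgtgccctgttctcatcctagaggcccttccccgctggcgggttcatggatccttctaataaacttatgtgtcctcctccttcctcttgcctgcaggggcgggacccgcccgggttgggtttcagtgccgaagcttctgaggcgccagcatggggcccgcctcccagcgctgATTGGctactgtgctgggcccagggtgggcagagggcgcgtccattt
Idi1: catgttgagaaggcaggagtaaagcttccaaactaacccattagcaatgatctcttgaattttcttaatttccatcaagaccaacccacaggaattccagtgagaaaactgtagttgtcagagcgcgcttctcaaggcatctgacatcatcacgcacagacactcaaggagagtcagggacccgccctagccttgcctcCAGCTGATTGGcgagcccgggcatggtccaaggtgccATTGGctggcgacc
Cyp51: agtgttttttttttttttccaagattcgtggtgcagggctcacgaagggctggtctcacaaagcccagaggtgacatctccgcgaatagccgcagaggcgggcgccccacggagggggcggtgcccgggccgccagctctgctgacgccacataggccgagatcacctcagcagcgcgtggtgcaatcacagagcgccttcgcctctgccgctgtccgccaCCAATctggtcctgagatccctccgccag
Elovl6: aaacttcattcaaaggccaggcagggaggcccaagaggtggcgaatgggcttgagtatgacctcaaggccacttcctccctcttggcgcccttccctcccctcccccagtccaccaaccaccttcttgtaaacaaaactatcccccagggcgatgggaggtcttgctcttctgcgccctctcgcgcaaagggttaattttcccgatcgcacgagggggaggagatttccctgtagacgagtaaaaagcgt

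In these windows CCAAT began 47 bases before the start at Tm7sf2, 29 bases before it at Cyp51, and 45 and 14 bases before it at Idi1, where CAGCTG lay directly beside the upstream box. At Hmgcs1 the sterol element began 137 bases before the start, between CCAAT matches that began at 176 and 45 bases before it.

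MyoD peaks were joined to members where a summit lay in the locus or within 10 kb, in mm9 coordinates. Of the 35 tested members 15 had such a peak, against 38.9% of 15930 tested genes on the chromosomes of the peak list. Of the 28 members alone in their locus 9 had one (32.1%, exact Clopper-Pearson 95% interval 15.9% to 52.4%, counting error only), against 32.8% of such genes. The share of members was thus near the background. It was 2 of 13 for sterol enzymes, 3 of 9 for fatty acid enzymes and 4 of 6 for regulators, Stard4 and Lpin1. The exact intervals overlapped, at 1.92% to 45.4%, 7.49% to 70.1% and 22.3% to 95.7%. Median locus lengths in that order were 16116, 37340 and 39948 bp, against 17216 bp for all tested genes alone in their locus. A longer locus takes in more sequence, and the part of length in these shares was not tested. At a false discovery rate of at most 5%, 4 of the 35 had a peak (Fdps, Srebf2, and at shared loci Acss2 and Mvd), against 11.7% of all tested genes. Of the 9 sterol enzymes called higher and alone in their locus, 2 had a peak, Fdps and Lss. Over all tested genes alone in their locus and called in either direction, 1066 of 2739 had a peak. The share among those called higher was not computed, so the 2 of 9 has no matching background.

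The remaining sterol enzymes alone in their locus had their nearest summit between 22728 bp (Pmvk) and 996785 bp (Nsdhl) away, among them Idi1 (103722 bp), Cyp51 (104913 bp) and Sc4mol (153527 bp). The Fdps peak, chromosome 3 from 88894592 to 88894974, held 33 tags at 17.6-fold enrichment, 2671 bp outside the locus, with Rusc1 also within 10 kb. The Lss peak, chromosome 10 from 76005494 to 76005920, lay inside the locus and held 8 tags (false discovery rate 23.2%). Tags, enrichment and false discovery rates are the authors' values for each peak. Mvd is uninformative here, since its merged locus held 93 peaks. Fdft1 and Tm7sf2 had 2 peaks each at shared loci, with at most 12 and 32 tags.

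Among the regulators and Lpin1, 3 peaks lay within 1 kb of the start of a gene alone in its locus. The start was taken as the end of the mm9 locus on the strand given by RefSeq. The share of all tested genes with such a peak is not given here, so this count has no background beside it. Srebf2 had the highest tag number of any member's peak outside the Mvd locus, 62 tags at 12.6-fold enrichment (false discovery rate 2.75%), more than 99.0% of the 10756 peaks; it lay on chromosome 15 from 81978131 to 81979117, with the summit 714 bp inside the locus, and Ccdc134 was also within 10 kb. Insig1 had a peak of 24 tags at 11.8-fold enrichment (false discovery rate 9.29%) on chromosome 5 from 28397364 to 28398221, which covered the start of the gene with its summit 309 bp before it. Lpin1 had a peak of 11 tags (false discovery rate 23.3%) on chromosome 12 from 16596455 to 16596821, with its summit 27 bp before the start. Of these genes Insig1 was called higher and the others were not called. Stard4 had 2 peaks, of 11 tags inside its locus and of 8 tags with the summit 74 bp outside an end of it. Stard4 had no RefSeq window to give its strand, so its start was not set and its peaks could not enter the count above. The Srebf1 locus, shared with Rai1, had 5 peaks, of 10 to 37 tags.

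In the fatty acid branch, Fads2 had the peak with most tags, 40 at 6-fold enrichment (false discovery rate 14.3%). This peak lay close to the end of the locus away from the start and within 10 kb of Fads3. Acaca and Acacb had 1 peak of 7 tags each inside the locus, and Fasn 1 of 14 tags 9553 bp outside it. Acss2 had 3 peaks at its shared locus, of which that with most tags, 13, stood at 39.98-fold enrichment. The nearest summits to Scd1 and Scd2 were 159361 and 186877 bp away. Peaks at members outside the Mvd locus held a median of 13 tags (7 to 62, 23 peaks), against 14 over all peaks.

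**Figure D5:**
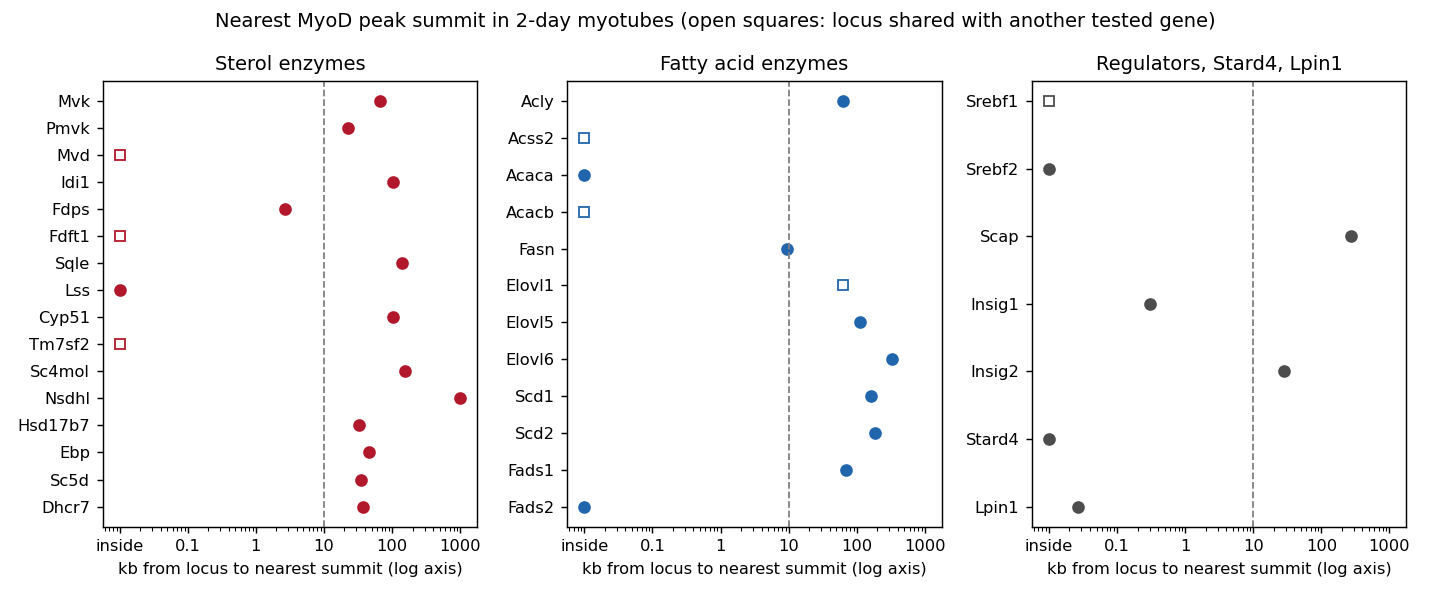
Distance in kb (log axis) from each tested member's locus to the nearest MyoD summit in 2-day myotubes, by branch; filled circles are genes alone in their locus, open squares genes that share it, and the dashed line marks 10 kb. Most sterol enzymes lie right of the line, up to 996785 bp for Nsdhl. Members of each branch lie within 1 kb, among them Lss, Acaca, Srebf2, Insig1 and Lpin1.

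For the genes with a peak close to the start, the RefSeq promoters are printed in the same way, chosen after their values were seen. The RefSeq starts were not matched to the mm9 locus ends used for the peaks. A printed stretch therefore need not be the sequence beside the peak. In GRCm38.p6, a build other than that of the peaks, they are chr5:28071162-28071411 on the plus strand for Insig1, chr15:82147019-82147268 on the plus strand for Srebf2 and chr12:16610967-16611216 on the minus strand for Lpin1.
Insig1: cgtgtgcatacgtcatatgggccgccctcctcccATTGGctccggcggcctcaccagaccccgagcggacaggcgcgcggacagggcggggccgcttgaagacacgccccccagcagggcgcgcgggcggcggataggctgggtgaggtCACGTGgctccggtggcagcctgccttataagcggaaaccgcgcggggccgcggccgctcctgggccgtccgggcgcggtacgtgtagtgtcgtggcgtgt
Srebf2: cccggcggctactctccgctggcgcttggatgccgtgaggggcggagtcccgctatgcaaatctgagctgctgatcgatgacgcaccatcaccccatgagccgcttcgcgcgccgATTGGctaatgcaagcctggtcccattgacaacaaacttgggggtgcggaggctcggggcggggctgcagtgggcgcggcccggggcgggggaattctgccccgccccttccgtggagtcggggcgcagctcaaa
Lpin1: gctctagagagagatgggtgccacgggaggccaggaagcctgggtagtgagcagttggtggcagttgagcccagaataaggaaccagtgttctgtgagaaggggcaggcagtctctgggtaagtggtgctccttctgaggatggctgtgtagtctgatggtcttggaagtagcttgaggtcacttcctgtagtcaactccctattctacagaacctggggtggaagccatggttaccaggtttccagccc

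Insig1 and Srebf2 each hold 1 CCAAT match in this stretch, which began 216 and 135 bases before the start. Insig1 also holds CACGTG, 101 bases before it. The printed Lpin1 stretch holds none of the motifs. The Srebf2 window holds CAGGTG after the start, 37 bases on and outside the printed stretch, and no CAGCTG or CAGGTG match lies in the windows of Insig1 and Lpin1.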

How the data were processed

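Of the 7 samples, 3 were used, each the only one of its group: RNA of growing myoblasts, RNA of 2-day myotubes and MyoD ChIP of 2-day myotubes. Expression values are FPKM as deposited, in a Cuffdiff gene table; the submitters' processing notes list Cuffdiff, CASAVA 1.7.0 and mm9, and no source used here names the aligner, annotation or normalization setting. The table was deposited in 2 identical copies, of which 1 was used. The p-values and q-values are the authors', from that deposited table. Peaks were called with MACS (version 1.3.7 in the submitters' processing notes) on 1 treatment of 8637045 tags and 1 control of 9129012, per the file headers. Tags are counts, the p score is 10 times the −log10 of p, the fold is a ratio over regional background and the false discovery rate is a percent, all per the file headers; the score was not used.

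The members and lists were chosen with earlier results of these data known; 1 listed marker is not reported here. The implied SE is the size of the log2 fold change divided by the authors' test statistic. Calls after centring took p from that SE, with Benjamini-Hochberg adjustment over all 15966 tested genes. All tested members were named, and context genes where the authors called them. A summit is the peak start plus its offset minus 1. Members were matched by symbol to RefSeq (36 of 36, Sc4mol through its current name Msmo1). Steps were tested on simulated data. Python 3.11.15, pandas 2.3.3 and scipy 1.17.1 were used. Other pseudocounts, filters on low values and shared loci, centring, a stricter q, wider branches and other peak settings were tried.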

Additional observations from a re-analysis of the deposited data

How the results depend on the processing

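No paired analysis was possible because each group holds 1 sample. The sterol calls stayed within 1.5 times the reported 11 under every alternative tried, from 8 at a q of at most 0.01 to 14 after centring, and 0 were lower throughout. The sterol median ran from 1.41 to 2.05. Lower calls were fewer under other settings: of all members and of the fatty acid branch alike, 3 as reported became 0 at a q of at most 0.01, 1 after centring and 1 among genes with a mean of at least 10 FPKM. Without shared loci 1 fatty acid enzyme, Scd1, was called higher, and 3 context genes were called lower; after centring 5 context genes were called higher. The fatty acid median of -0.55 turned to 0.15 when the mean was taken. Members with a peak fell from 15 to 4, Mvd included, at a false discovery rate of at most 5%, to 7 with at least 20 tags and to 9 without shared loci; over all tested genes the shares were 11.7% and 18.4% for the first 2 of these. The cause of these changes was not tested, beyond fewer genes or peaks entering. Unknown read depth limits the genes of low FPKM, among them Elovl6, Acacb and Stard4.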
